A study of Homo sapiens with 8 samples.

Results

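The entries described here are 7 mature miRNA names that have been described as matching or resembling pieces of longer structural RNAs, out of the 1780 miRNA entries in the count matrix. They were chosen by name from a list of entries known for this resemblance and for how they moved between cultures in these libraries. Of the 7 entries, 5 (hsa-miR-1246, hsa-miR-4488, hsa-miR-4497, hsa-miR-7641 and hsa-miR-4485-3p, written below without the species prefix) were put forward as ribosomal or U2 like entries that rose in spheroids, and 2 (hsa-miR-4454 and hsa-miR-7974) as tRNA like entries that fell. Because the spheroid against monolayer values took part in the choice, they are given below as a description with no test.

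Small RNA was sequenced from DLD1 and HT29 cells, both established lines from human colorectal adenocarcinoma, after 6 days of growth either as a flat monolayer (2D) or as multicellular spheroids (MCS) that formed in round-bottom wells coated with agarose. Flasks for 2D received 35000 DLD1 or 100000 HT29 cells, and a well for MCS received 7000 or 3500. DLD1 cells grew in RPMI and their libraries were made with version V3 of the small RNA kit, while HT29 cells grew in DMEM and their libraries were made with version V2, so that line, medium and kit version cannot be told apart. Each line and culture had 2 libraries, named by the labels as biological replicates, with 10495634 to 26211524 counts on miRNAs per library.

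In HT29 cells the replicates stood apart in composition. The most abundant entry in both replicate 1 libraries, miR-10a-5p, took 47.3% of the counts in 2D and 38.5% in MCS there, against 10.6% and 6.57% in replicate 2. The summed level of 5 epithelial miRNAs (miR-192-5p, miR-194-5p, miR-200b-3p, miR-200c-3p and miR-141-3p) was between 64507 and 238205 CPM (counts-per-million of the library's miRNA counts) in the 8 libraries, while the liver marker miR-122-5p and the neural marker miR-124-3p did not exceed 0.880 and 0.153 CPM.

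Mature miRNAs are cut from hairpin precursors by Drosha and Dicer and loaded into Argonaute proteins, where the seed at bases 2 to 8 selects target mRNAs. Ribosomal RNAs, the spliceosomal U2 RNA and tRNAs are far more abundant transcripts, and short pieces of them enter small RNA libraries by the same cloning steps. A mature miRNA name whose sequence occurs in such a transcript can be counted from reads of the hairpin or of the fragment, and the counts of that name do not separate the sources.

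The mature sequences of 6 of the 7 entries were held in the RefSeq table (build GRCh38.p14) and are shown because each reported match rests on these letters. They are written 5′ to 3′ with the seed in capitals.
miR-1246: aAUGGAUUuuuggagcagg
miR-4488: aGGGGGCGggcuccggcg
miR-4497: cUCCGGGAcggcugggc
miR-4485-3p: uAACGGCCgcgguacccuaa
miR-4454: gGAUCCGAgucacggcacca
miR-7974: aGGCUGUGaugcucuccugagccc
No seed was shared between any of these 6 sequences, and the only other entry of the matrix with a seed of theirs was miR-1237-5p, which has that of miR-4488. The G and C content was 88.9% in miR-4488 and 82.4% in miR-4497, against a median of 52.2% over the 1557 matrix entries with a sequence in the table, 3.21% of which reached 80%. The other 4 sequences held 42.1% (miR-1246) to 65.0% (miR-4454). With 17 to 20 bases, 5 of the 6 were short names, since 10.3% of the 1557 entries had at most 20 bases, and miR-7974 had 24.

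Each sequence was searched for on both strands of GRCh37, the build the authors used, and on the sense strand of the structural RNA genes annotated there. The sequence of miR-1246 was found without mismatch at 7 sites. One of them, chr2:177465752-177465770 on the minus strand, lies opposite an intron of LINC01117. The other 6 lie in annotated copies of the U2 small nuclear RNA gene, RNU2-7P, RNU2-6P, RNU2-33P, RNU2-37P, RNU2-48P and RNU2-61P, beginning at base 80 to 94 of the copy. Their names end in P, the mark of a pseudogene, and no other annotated U2 gene held an exact match. Sites were assigned to such a gene only in its sense direction. A further 14 sites had 1 mismatch, 12 of them in small nuclear RNA genes. Of the 1557 entries with a sequence, miR-1246 was the only one with an exact match in an annotated small nuclear RNA gene (0.0642%).

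The sequences of miR-4488 and miR-4497 lay side by side in ribosomal DNA. The scaffold GL000220.1 carries 2 copies of the ribosomal unit. They were found here by a match to RNA5-8SP6, an annotated 5.8S copy named as a pseudogene, with 94.6% identity over 149 aligned bases. In each copy the exact sequence of miR-4488 began 1759 bases past the 5.8S match, and that of miR-4497, with the single difference C17A (positions counted from the 5′ end of the miRNA), began 1889 bases past it, on the same strand. In the ribosomal unit the 28S RNA follows 5.8S on that side. The stretch from one site to the other, GL000220.1:113933-114079 on the plus strand, was identical in the second copy, and is shown with the sites of miR-4488 and of miR-4497 in capitals, to make their spacing of 112 bases and the base composition visible.
rDNA stretch: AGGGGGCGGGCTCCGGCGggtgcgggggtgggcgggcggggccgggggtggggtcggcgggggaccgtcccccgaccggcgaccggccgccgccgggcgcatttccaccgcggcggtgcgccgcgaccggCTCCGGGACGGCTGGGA
Outside the scaffold, miR-4488 matched its own gene MIR4488 at chr11:61276071-61276088 and a site opposite an exon of ADAMTS8. The only exact site of miR-4497 was in its own gene MIR4497 at chr12:110271155-110271171, opposite an exon of TRPV4.

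The sequence of miR-4485-3p matched the mitochondrial 16S ribosomal RNA gene MT-RNR2 exactly at chrM:2563-2582 on the plus strand, from base 893 of 1559. It also occurred exactly at nuclear sites, among them chr11:10529824-10529843 outside annotated genes and 1 site on chromosome 3. Exact matches in mitochondrial ribosomal RNA were found for 2 of the 1557 entries, miR-4485-3p and miR-1973.

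The exact sequence of miR-4454 occurred once, at chr4:164014759-164014778 on the minus strand outside annotated genes. The tRNA resemblance lay in its last bases. With 1 mismatch there were 188 further sites, 149 of them with G1C. Without the final cca, a tail that is added to tRNAs after transcription, its 17 bases were found at 214 sites with at most 1 mismatch. Of these, 9 had the complementary arm gccgtga upstream that closes a unit of 72 bases, each with the single difference G2A. The 9 units lay on chromosomes 1, 6, 9 and 15 and were identical, and one of them, chr6:27125906-27125977 on the plus strand, is shown with the bases that correspond to miR-4454 in capitals.
unit of 72 bases: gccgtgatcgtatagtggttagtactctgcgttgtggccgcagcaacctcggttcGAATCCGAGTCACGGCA
Nuclear tRNA genes are not part of the annotation used, so the units carry no gene name here. For miR-7974, put forward as tRNA like, no such match was found. Its only site with up to 2 mismatches was its own, chr19:11606359-11606382 within an intron of ZNF653 and on its strand, and its longest run in the structural RNAs searched, 14 bases in RN7SL79P, was equalled or exceeded by 2.06% of the 1557 entries.

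Together the 7 entries made up 0.0173% to 0.177% of the miRNA counts of a library. Levels are given as counts and as CPM of the library total. In such bulk samples fewer cells with an RNA and less of it per cell cannot be told apart. Reads that are copies of 1 molecule were not set apart, so intervals and floors cover counting error only. The 95% Wilson interval was 748 to 773 CPM around the highest level of miR-1246 and 0.00673 to 0.216 CPM around the single count of miR-4497 in HT29 2D.

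The U2 like entry miR-1246 was the most abundant of the 7 in both DLD1 MCS libraries and in replicate 1 of HT29 MCS. In DLD1 cells it had 885 and 1651 counts in 2D, or 56.0 and 64.8 CPM, and 13740 and 6300 counts in MCS, or 760 and 308 CPM. In HT29 cells it had 50 and 168 counts in 2D, or 4.76 and 6.41 CPM, and 4084 and 2777 in MCS, or 380 and 162 CPM. Both MCS libraries lay above both 2D libraries in each line, and the 2 MCS libraries of a line differed from each other 2.47-fold in DLD1 and 2.35-fold in HT29, replicate 1 being the higher in both. Scaled by upper quartile factors, the log2 fold change was 3.44 ± 0.26 (SE, n = 2 and 2) in DLD1 and 5.59 ± 1.12 in HT29, where it was 3.99 without replicate 1 of MCS.

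The pair that matches ribosomal DNA was rare in 2D. In DLD1 cells miR-4488 had 15 and 7 counts in 2D, or 0.948 and 0.275 CPM, and 1614 and 493 in MCS, or 89.3 and 24.1 CPM. Its neighbour miR-4497 had 22 and 14 counts in 2D, or 1.39 and 0.550 CPM, and 835 and 299 in MCS, or 46.2 and 14.6 CPM. Again replicate 1 of MCS was the higher, 3.71-fold for miR-4488 and 3.16-fold for miR-4497, and both entries were far above 2D in either library. The log2 fold change was 6.89 ± 0.46 for miR-4488 and 5.30 ± 0.44 for miR-4497 (SE, n = 2 and 2).

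The counts of miR-4488 divided by those of miR-4497 were 0.682 and 0.50 in DLD1 2D and 1.93 and 1.65 in DLD1 MCS, so that the neighbouring sites did not keep 1 ratio between the cultures. In HT29 cells both entries were near or at 0 in 2D. There miR-4488 had 0 counts in both 2D libraries, which allows up to 0.286 and 0.114 CPM (3 counts), and 24 and 19 counts in MCS, or 2.23 and 1.11 CPM. Over the pooled libraries its CPM was at least 18.8-fold higher in MCS, taking 3 counts over the 2D group as the floor. For miR-4497, 0 and 1 counts in HT29 2D stood against 8 and 16 in MCS, a pooled ratio of 31.5 with an exact 95% counting interval of 5.14 to 1297.

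The entry miR-7641, put forward as ribosomal, had 59 and 52 counts in DLD1 2D, or 3.73 and 2.04 CPM, and 652 and 170 in MCS, or 36.1 and 8.31 CPM, with a log2 fold change of 3.20 ± 0.39 (SE, n = 2 and 2). In HT29 cells it had 3 and 31 counts in 2D and 30 and 90 in MCS, or 0.286, 1.18, 2.79 and 5.24 CPM in that order. The cultures did not overlap in either line, and the DLD1 MCS libraries differed 4.34-fold from each other.

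The mitochondrial entry miR-4485-3p did not share this pattern. In DLD1 cells it had 45 and 128 counts in 2D, or 2.85 and 5.02 CPM, and 45 and 70 in MCS, or 2.49 and 3.42 CPM, and the cultures overlapped. In HT29 cells it had 40 and 278 counts in 2D, or 3.81 and 10.6 CPM, and 366 and 1145 in MCS, or 34.1 and 66.6 CPM. Only the HT29 values go with its place among the entries that rose, with a log2 fold change of 2.70 ± 0.44 (SE, n = 2 and 2).

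The tRNA like entry miR-4454 moved the other way. It had 1253 and 2317 counts in DLD1 2D, or 79.2 and 90.9 CPM, and 171 and 154 in MCS, or 9.46 and 7.53 CPM, and its log2 fold change was -2.96 ± 0.33 (SE, n = 2 and 2). In HT29 cells it was the most abundant of the group in 2D, with 8963 and 40386 counts, or 854 and 1541 CPM. The HT29 MCS libraries held 484 and 10441 counts, or 45.0 and 608 CPM, a 13.5-fold difference between the replicates that was larger than the difference between the group means (3.67-fold). Both MCS libraries still lay below both 2D libraries, and the log2 fold change was -2.50 ± 0.98, or -4.42 without replicate 2 of MCS.

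In DLD1 cells miR-7974 followed miR-4454 closely, with 463 and 691 counts in 2D, or 29.3 and 27.1 CPM, and 45 and 50 in MCS, or 2.49 and 2.44 CPM. Its log2 fold change was -3.13 ± 0.39 (SE, n = 2 and 2). In HT29 cells the cultures overlapped, with 438 and 5538 counts in 2D, or 41.7 and 211 CPM, and 403 and 1365 in MCS, or 37.5 and 79.4 CPM, and the log2 fold change was -1.03 ± 0.50. The counts of miR-4454 divided by those of miR-7974 were 2.71 to 3.80 in the 4 DLD1 libraries and 20.5, 7.29, 1.20 and 7.65 in the HT29 libraries (2D replicates 1 and 2, then MCS), so that the pair kept nearly 1 ratio in DLD1 and not in HT29.

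**Figure D1:**
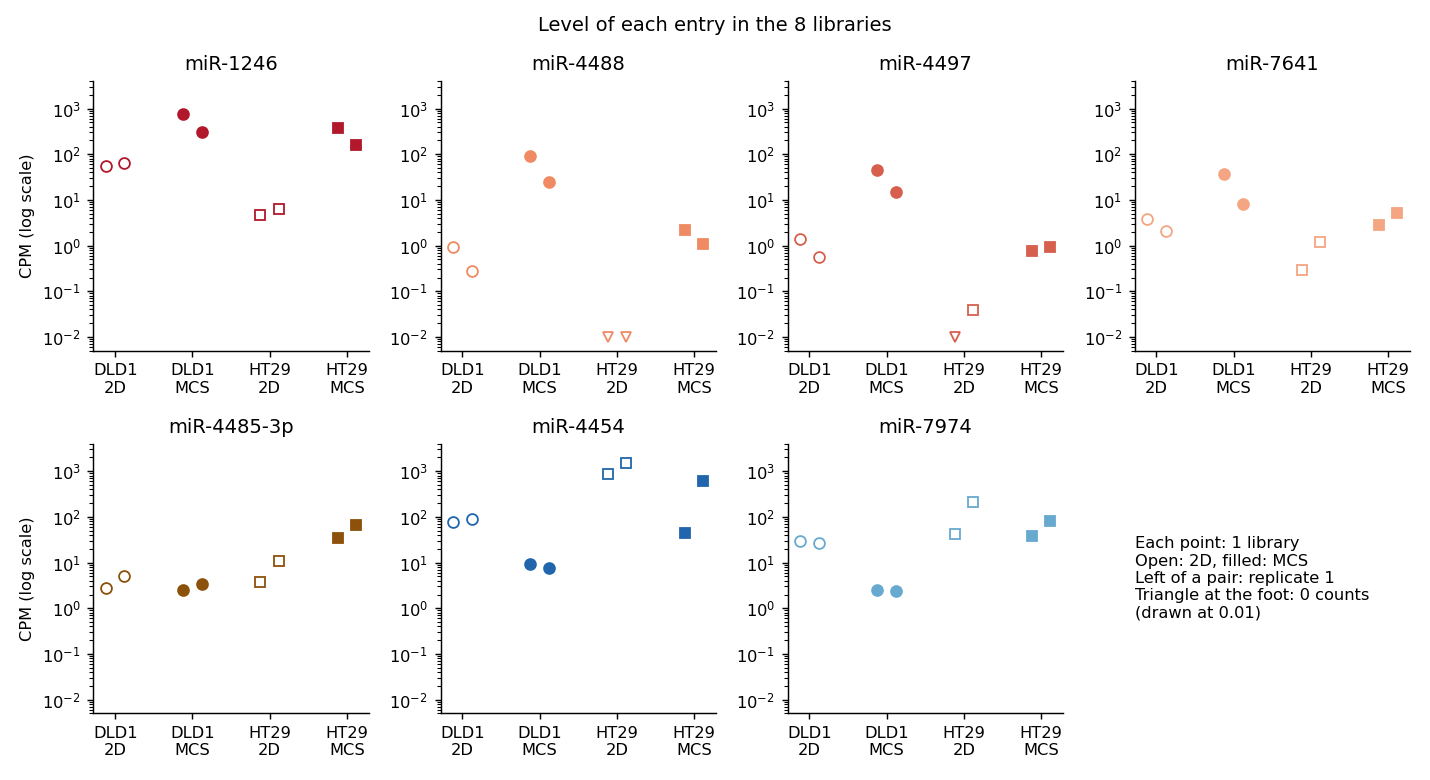
CPM on a log scale of the 7 entries in the 8 libraries, 1 point per library, open for 2D and filled for MCS, with replicate 1 on the left of each pair and triangles for 0 counts. miR-1246, miR-4488, miR-4497 and miR-7641 lie higher in MCS in both lines, miR-4485-3p in HT29 only, and miR-4454 lies lower in MCS in both lines, with 45.0 and 608 CPM in the HT29 MCS pair.

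In DLD1 cells, 6 of the 7 entries passed the mean of 10 CPM that was set for the fit, 4 of them at least 1.5-fold higher in MCS and 2 at least 1.5-fold lower. Over all 346 miRNAs fitted, 32.9% were at least 1.5-fold higher and 13.9% at least 1.5-fold lower. Without overlap of the CPM, the same 4 entries lay higher and the same 2 lower, while 29.5% of all miRNAs fitted lay higher and 42.5% lower. Without replicate 1 of MCS, 3 entries (miR-4488, miR-4497 and miR-7641) fell below 10 CPM, and only 1 was then counted as higher.

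In HT29 cells, 4 of the 7 entries passed, 2 of them (miR-1246 and miR-4485-3p) at least 1.5-fold higher and 2 (miR-4454 and miR-7974) at least 1.5-fold lower, against 20.6% higher and 12.6% lower of the 301 miRNAs fitted. Of these 4, miR-1246 and miR-4485-3p lay higher and miR-4454 lower without overlap, against 11% and 4.98% of all miRNAs fitted. In either line the choice of the entries fixed these counts, and nothing is read from them. Taking library totals in place of upper quartile factors lowered the log2 fold changes of all miRNAs by a median of 0.37 in DLD1 and raised them by 0.13 in HT29.

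Summed CPM set the 2 kinds of entry against each other. The 5 entries put forward as rising held 64.9 and 72.7 CPM in DLD1 2D and 935 and 358 in MCS, against 8.86 and 18.2 in HT29 2D and 420 and 236 in MCS. The 2 put forward as falling held 109 and 118 CPM in DLD1 2D and 12.0 and 9.97 in MCS, against 896 and 1752 in HT29 2D and 82.5 and 687 in MCS. The ratio of the former to the latter within a library, which no scaling changes, was 0.598 and 0.616 in DLD1 2D and 78.2 and 35.9 in MCS. In HT29 it was 0.00989 and 0.0104 in 2D and 5.09 and 0.343 in MCS, so that the 2D replicates nearly shared a value and the MCS replicates did not.

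As parts of the counts of the 7 entries, miR-1246 took 32.3% and 34.0% in DLD1 2D and 80.3% and 83.6% in MCS. In HT29 2D, miR-4454 took 94.4% and 87.0%. The HT29 MCS libraries split, with 75.6% miR-1246 in replicate 1 and 65.9% miR-4454 in replicate 2.

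**Figure D2:**
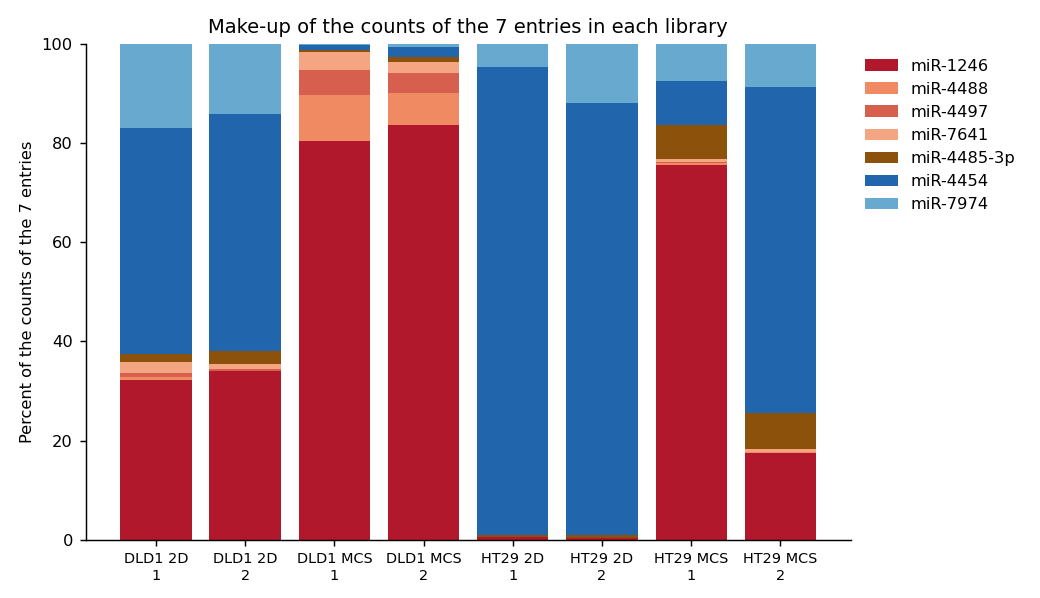
Percent of the counts of the 7 entries that each entry took, 1 bar per library, from 0 to 100. The share of miR-1246 goes from 32.3% and 34.0% in DLD1 2D to 80.3% and 83.6% in MCS, while the HT29 MCS libraries differ, with 75.6% and 17.5%.

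Markers of other cell types moved with the cultures for some lists and not for others. The haematopoietic list (miR-451a, miR-223-3p, miR-142-5p and miR-150-5p, of which 3 of 4 are in the matrix) summed to 25.4 to 26.6 CPM in DLD1 2D and 87.8 to 88.7 in MCS, and to 18.6 to 69.4 CPM in HT29 2D and 111 to 231 in MCS. Nearly all of the DLD1 sum was miR-142-5p, and the red cell miRNA miR-451a did not exceed 0.885 CPM in any library. The muscle list (miR-1-3p and miR-133a-3p) summed to 1.33 to 2.02 CPM in DLD1 2D and 8.99 to 11.4 in MCS, but overlapped in HT29, at 23.1 to 50.3 in 2D and 30.5 to 91.2 in MCS. The list of fibroblast or endothelial miRNAs (miR-143-3p, miR-145-5p and miR-126-3p) overlapped between the cultures of DLD1, at 82.2 to 94.3 and 81.5 to 97.3 CPM, and of HT29, at 2.38 to 16.6 and 6.14 to 15.9 CPM. The lists carry the names of other cell types, though each library came from a culture of an established carcinoma line. Whether these miRNAs bear on the levels of the 7 entries was not tested.

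Entries other than the 7 that match structural RNA were then taken by sequence alone, with at most 1 mismatch over their whole length. Ribosomal DNA within 8000 bases of the 5.8S matches, searched only in the direction of the ribosomal RNA, held 12 such entries, of which 10 were not among the 7. In DLD1 cells, 4 of these 10 (miR-3648, miR-4492, miR-4516 and miR-7704) lay higher in MCS without overlap, 2 (miR-1268a and miR-1268b) lay lower, and 4 overlapped. Of all miRNAs fitted, 29.5% lay higher and 42.5% lower without overlap. Passing the 10 CPM filter left 4 to test, and edgeR's quasi-likelihood test called 1 higher and 2 lower, while 29.8% of all miRNAs fitted were called higher and 11.6% lower.

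The entry called higher was miR-7704, with a log2 fold change of 1.93 ± 0.35 and a Benjamini-Hochberg adjusted p of 3.83e-07. The entries called lower were miR-1268a at -1.18 ± 0.30 (adjusted p = 0.000478) and miR-1268b at -0.996 ± 0.292 (adjusted p = 0.00244, edgeR), whose sequences begin at the same base and whose counts may share reads. The fourth, miR-1275, had 0.42 ± 0.27 (adjusted p = 0.206, all edgeR). With all 8 libraries in 1 fit the calls of miR-7704, miR-1268a and miR-1268b were lost (edgeR adjusted p = 0.0682, 0.548 and 0.612). In HT29 cells none of the 10 reached the filter, and 2 of them, miR-4516 and miR-7704, lay higher in MCS without overlap, beside 11% of the miRNAs fitted there.

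Their order along the ribosomal unit was looked at after the values were seen and includes miR-4488 and miR-4497, which were chosen for how they moved, so it is a description only. From the end of the 5.8S match to 4298 bases past it lay miR-4488, miR-4497, miR-7704, miR-4492 and miR-4516, all of them higher in both DLD1 MCS libraries. The pooled CPM of miR-4492 was at least 81.8-fold higher in DLD1 MCS, from 0 and 0 counts in 2D to 153 and 76, that of miR-4516 was 15.6-fold higher (exact 95% counting interval 10.6 to 24.0), from 7 and 20 counts to 301 and 92, and that of miR-7704 was 2.81-fold higher (2.52 to 3.14).

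The 5 entries before 5.8S, from 7458 to 4238 bases upstream, had ratios between 0.405 (miR-663b) and 2.65 (miR-3648, 1.53 to 4.78), the latter overlapping in its interval with miR-7704, and miR-1275 and miR-6724-5p, the most upstream, had 1.07 and 1.08. The sequence shared by miR-1268a and miR-1268b, 6351 bases downstream, had ratios of 0.351 and 0.397 in DLD1, but of 1.68 (1.33 to 2.13) and 1.88 (1.52 to 2.32) in HT29. In HT29 cells miR-4492 had 1 count in 2D and 0 in MCS, so that it did not go with miR-4488 there.

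**Figure D3:**
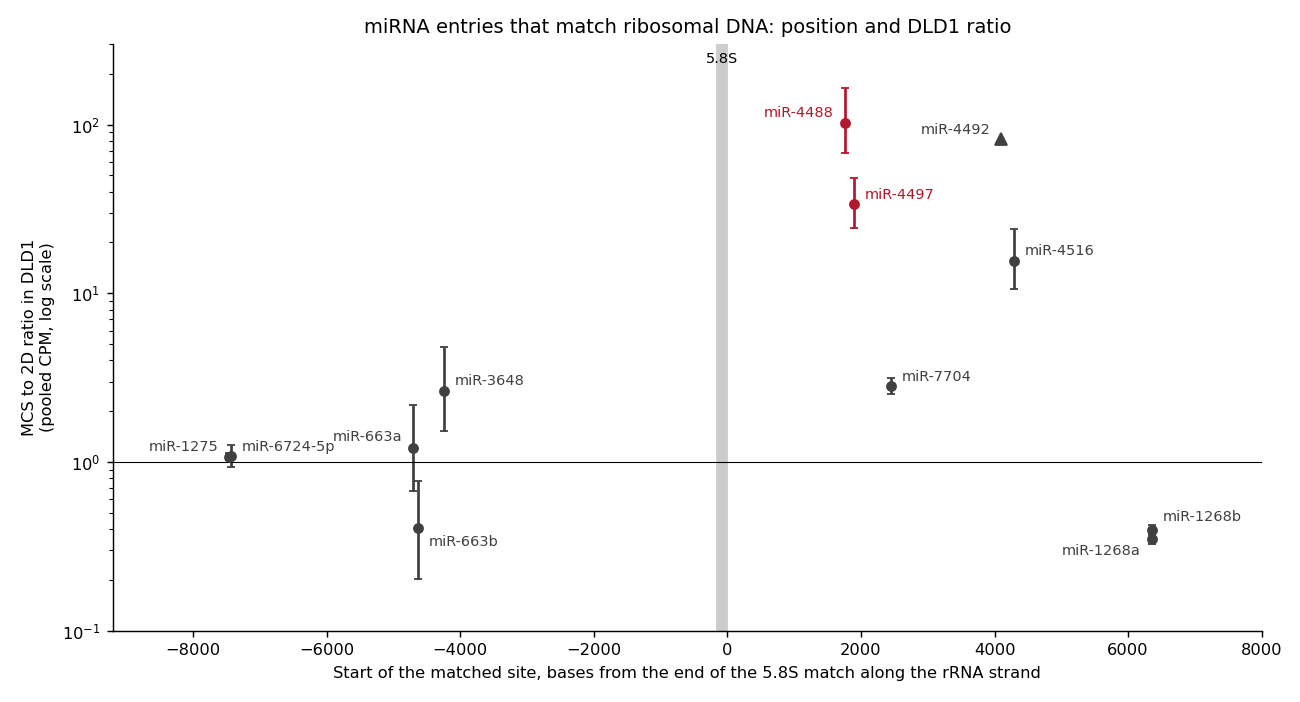
Ratio of pooled CPM, MCS to 2D, in DLD1 on a log scale, against the start of the matched site in bases from the end of the 5.8S match, for the 12 entries that match ribosomal DNA with at most 1 mismatch. Bars are exact 95% counting intervals, the triangle is a lower bound, red marks miR-4488 and miR-4497, and the ratios run from 0.351 (miR-1268a) to 103 (miR-4488), with overlapping bars for miR-3648 at 2.65 and miR-7704 at 2.81.

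Annotated small nucleolar RNA genes held 10 matching entries, none among the 7. In DLD1 cells 7 of them lay higher in MCS without overlap and none lower, beside 29.5% and 42.5% of all miRNAs fitted, though only 3 of the 10 were among those fitted. Of these 3, where 29.8% of all miRNAs fitted were called higher, miR-664a-3p (1.74 ± 0.35, adjusted p = 4.36e-06) and miR-5701 (1.06 ± 0.30, adjusted p = 0.00176) were called higher by edgeR, and miR-1291 had -0.34 ± 0.33 (adjusted p = 0.420). The call of miR-5701 was lost without replicate 2 of 2D or replicate 1 of MCS, with library totals and with all 8 libraries in 1 fit (edgeR adjusted p = 0.115, 0.106, 0.0540 and 0.176). The log2 fold change of miR-1291 rested on the 2D libraries, at 1.24 without replicate 1 and -1.22 without replicate 2. In HT29 cells 2 of the 10, miR-1248 and miR-664b-5p, lay higher without overlap, beside 11% of the miRNAs fitted there.

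Of 12 entries listed as ribosomal by name rather than by sequence, miR-7704 was the only one past the 10 CPM filter in DLD1. With no filter, edgeR called 5 of the 12 higher in DLD1 MCS and 0 lower, where 7.77% of the 1492 miRNAs then tested were called higher and 3.69% lower. Beside miR-7704 and miR-4516 these were miR-3656, with 3 and 14 counts in 2D and 361 and 88 in MCS, miR-6087, with 26 and 27 in 2D and 394 and 103 in MCS, and miR-4532, with 0 and 3 in 2D and 61 and 2 in MCS. As for miR-4488 and miR-4497, replicate 1 of MCS was the higher for each of the 3, and the cultures overlapped for miR-4532. In HT29 cells miR-3656 had 1 or 2 counts in each of the 4 libraries, miR-6087 had 0 in 2D and 4 in each MCS library, and miR-4532 had 0 and 2 in 2D and 32 and 33 in MCS. With no filter edgeR called miR-4532 higher in HT29 MCS (5.82 ± 1.16, adjusted p = 0.000181). The number of all miRNAs called in that fit is given in the last section. Their share of the miRNAs tested was not worked out for HT29, so nothing is read from this call.

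Of 13 entries listed as hosted by small nucleolar RNA, 4 were tested in DLD1 and 3 were called higher in MCS by edgeR, beside 29.8% higher and 11.6% lower of all miRNAs fitted. These were miR-664a-3p, miR-3607-5p (1.21 ± 0.26, adjusted p = 1.63e-05) and miR-3653-5p (1.25 ± 0.34, adjusted p = 0.00101). The latter pair lost the call with all 8 libraries in 1 fit (edgeR adjusted p = 0.252 and 0.0840), and miR-3653-5p also without replicate 2 of 2D (0.173) or of MCS (0.0940). Of 5 listed as mitochondrial none passed 10 CPM in DLD1, and miR-4484, the only one that did in HT29, had a log2 fold change of 0.38 and was not called there by edgeR. With no filter, edgeR called miR-3607-5p (3.49 ± 0.83, adjusted p = 0.00597) and miR-1248 (5.11 ± 1.45, adjusted p = 0.0459) higher in HT29 MCS. The share of all miRNAs called in that fit was not worked out, so nothing is read from these calls. In HT29 cells miR-1248 had 1 and 0 counts in 2D and 5 and 41 in MCS, so that its call rested mainly on replicate 2 of MCS.

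The other entry that resembles U2, miR-1290, had 2 counts in all, both in replicate 1 of DLD1 MCS. It matches small nuclear RNA with 1 mismatch.

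From a list of 8 other entries described as tRNA like, 5 were tested in DLD1, where 29.8% of all miRNAs fitted were called higher in MCS and 11.6% lower. By edgeR, miR-1260a (0.98 ± 0.25, adjusted p = 0.000385) and miR-1260b (0.74 ± 0.24, adjusted p = 0.00712) were called higher in MCS, and miR-5100 (-2.07 ± 0.33, adjusted p = 4.20e-09) and miR-4521 (-0.85 ± 0.25, adjusted p = 0.00244) lower. MiR-7977 had -0.78 ± 0.34 (adjusted p = 0.0541, all edgeR). With library totals miR-1260b lost its call and miR-7977 gained one (edgeR adjusted p = 0.164 and 0.0101), and miR-1260b lost it as well when either 2D library or replicate 1 of MCS was left out. With all 8 libraries in 1 fit only miR-5100 of the 4 kept its call. The list held calls in both directions, while miR-4454 and miR-7974 were both lower in DLD1 MCS. In HT29 cells the same number of the list could be tested, none was called, and 0% of the 301 miRNAs fitted were called in either direction by edgeR. There 12 had an unadjusted p under 0.05, and DESeq2 called 12.

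The difference between the lines within a culture was not itself a ground for choosing the entries, but it rests on the same libraries and levels, so the tests below are not independent of the choice. In 2D, 3 entries could be tested. Of these miR-1246 passed the 10 CPM mean through DLD1 alone, with means of 60.4 CPM there and 5.59 in HT29, so that a difference was built into its test. With no filter its edgeR adjusted p was 0.000228, from the same 2D levels that took part in the choice. Of the 354 miRNAs tested, 26.3% were called higher in HT29 and 26.8% lower. The tRNA like miR-4454 was higher in HT29, with a log2 fold change of 4.90 ± 0.42 (adjusted p = 0.00313), as was miR-7974 at 2.87 ± 0.42 (adjusted p = 0.00757), while the U2 like miR-1246 was lower at -2.28 ± 0.53 (adjusted p = 0.0246, all edgeR with n = 2 and 2). For each of the 3, both libraries of one line lay above both of the other. With either DLD1 2D library left out, miR-1246 (adjusted p = 0.0852 and 0.134) and miR-7974 (0.0746 and 0.108) lost the call by edgeR, and with library totals alone miR-7974 did (0.128).

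In MCS the fit held 348 miRNAs, 25.3% of which were called higher in HT29 and 30.2% lower. All 7 entries were in it, but each except miR-1246 passed the 10 CPM mean only through the line where it was high, so their number carries no weight. Higher in HT29 were miR-4454 at 5.29 ± 0.84 (adjusted p = 0.000221), miR-7974 at 4.88 ± 0.56 (adjusted p = 2.76e-05) and the mitochondrial miR-4485-3p at 4.39 ± 0.58 (adjusted p = 6.37e-05, all edgeR with n = 2 and 2). Lower were miR-4488 at -4.41 ± 0.79 (adjusted p = 0.000561), miR-4497 at -4.69 ± 0.69 (adjusted p = 0.000131) and miR-7641 at -1.98 ± 0.63 (adjusted p = 0.0171, all edgeR). The groups did not overlap for these 6, and with no filter on low values their edgeR adjusted p was 0.00547 or lower. Neither adds support to the calls, since the same MCS levels took part in the choice of the entries. Without replicate 1 of DLD1 MCS the 3 lower entries fell below 10 CPM and could not be tested. The call of miR-7641 was also lost with TMM factors, library totals or an upper quartile over the tested miRNAs (edgeR adjusted p = 0.0927, 0.0624 and 0.0541).

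miR-1246 did not pass the test between the lines in MCS, with -0.19 ± 0.66 (adjusted p = 0.821 by edgeR) and overlapping libraries. It changed side with the HT29 library left out, from -1.75 without replicate 1 to 0.64 without replicate 2. Both of these fits, each with a lone HT29 library, passed the call threshold, in opposite directions, so no direction is read from them. With no library left out, the difference of miR-1246 between the lines was past the threshold in 2D and not in MCS. Whether the 2 values differ was not tested, since that difference is also the one between the culture responses that took part in the choice.

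Of the other entries listed by name, 9 were tested between the lines in 2D, where 26.3% of all miRNAs tested were called higher in HT29 and 26.8% lower. Lower in HT29 were miR-5100 (-3.30 ± 0.37, adjusted p = 0.00419) and miR-3607-5p (-6.60 ± 0.47, adjusted p = 0.00305, both edgeR). For miR-5100, listed as tRNA like by name and not compared with nuclear tRNA, this was the opposite direction to miR-4454. Higher in HT29 were miR-4484 (1.83 ± 0.37, adjusted p = 0.0169) and miR-664a-3p (1.32 ± 0.38, adjusted p = 0.0430, both edgeR), and the other 5 were not called. Over the HT29 cultures miR-5100 and miR-3607-5p stayed under a mean of 10 CPM, as did miR-4484 over the DLD1 cultures. A difference may thus be built into their tests, and with no filter the edgeR adjusted p of each was 0.00658 or lower. The calls of miR-4484 and miR-664a-3p were lost with library totals (edgeR adjusted p = 0.385 and 0.774) and when either DLD1 2D library was left out. With no filter, where 393 miRNAs were called, miR-664a-3p lost its call as well (edgeR adjusted p = 0.0546). In that fit miR-1291 (-2.58, adjusted p = 5.24e-05) and miR-7977 (1.52, adjusted p = 0.0151, both edgeR) gained a call.

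In MCS 11 of the listed entries were tested and 6 called, beside 25.3% of all miRNAs called higher in HT29 and 30.2% lower. Of the 6, miR-7704 was lower in HT29 (-2.92 ± 0.57, adjusted p = 0.00100), as were the small nucleolar RNA hosted miR-3607-5p (-4.44 ± 0.69, adjusted p = 0.000201), miR-3653-5p (-3.76 ± 0.57, adjusted p = 0.000165) and miR-1291 (-2.33 ± 0.67, adjusted p = 0.0108), while miR-7977 (1.95 ± 0.50, adjusted p = 0.00575) and miR-4484 (1.81 ± 0.54, adjusted p = 0.0129, all edgeR), listed as mitochondrial but without a sequence match there, were higher. Over the HT29 cultures miR-7704, miR-3607-5p, miR-3653-5p and miR-1291 stayed under the 10 CPM mean, as did miR-4484 over the DLD1 cultures. A difference may thus be built into their tests, and with no filter the edgeR adjusted p of each was 0.0104 or lower. Not called were miR-664a-3p (-0.69) and 4 of the 5 listed as tRNA like, miR-1260a (-0.39), miR-1260b (0.01), miR-4521 (0.70) and miR-3182 (1.03). Of these, miR-3182 was called with TMM factors or without replicate 1 of HT29 MCS (edgeR adjusted p = 0.0463 and 0.0431), miR-4521 without that replicate (1.37, edgeR adjusted p = 1.16e-06) and miR-1260a without replicate 2 (-0.79, edgeR adjusted p = 0.0188). With library totals miR-1291, miR-7977 and miR-4484 lost the call (edgeR adjusted p = 0.0895, 0.0828 and 0.119), and the last 2 did so when either DLD1 MCS library was left out. Against upper quartile factors, TMM factors raised and library totals lowered the log2 fold changes of all miRNAs, by medians of 0.27 and -0.88 between the lines in 2D and of 0.37 and -0.33 in MCS. Kit version differs with line in each of these comparisons.

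**Figure D4:**
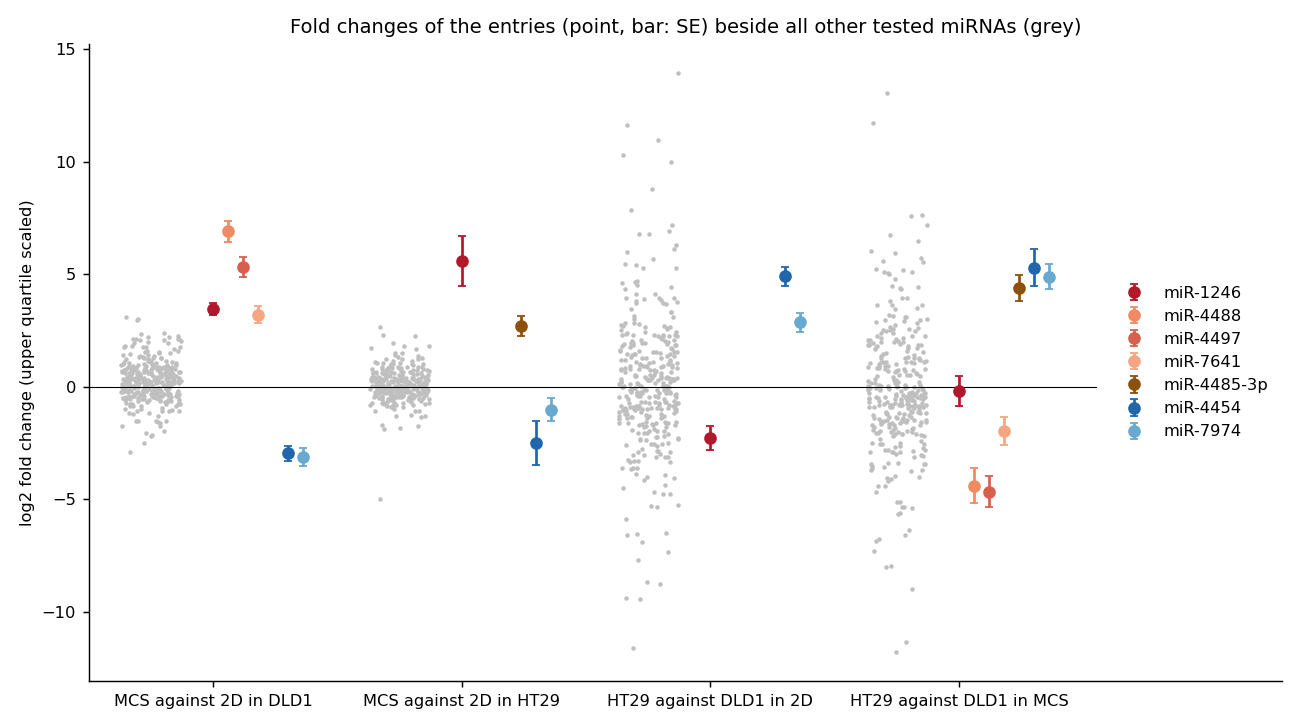
Log2 fold changes on the upper quartile scale for the 4 comparisons, with all other tested miRNAs in grey and the entries in colour (bars: SE, 2 libraries against 2), entries under 10 CPM in a comparison being left out. miR-4488 at 6.89 in DLD1 and miR-1246 at 5.59 in HT29 stand at the top of the culture comparisons, and between the lines in MCS the entries run from -4.69 (miR-4497) to 5.29 (miR-4454).

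Profiles over the 8 libraries were compared by the root mean square difference of log2(normalized CPM + 1) after centring within each line. Candidates were the other 353 miRNAs that averaged 10 CPM or more. The entries miR-4497 and miR-7641 fell below that average, so they were neither compared nor candidates. Whether miR-4497 lies nearest to miR-4488 could thus not be seen. For miR-1246, miR-4488, miR-4485-3p, miR-4454 and miR-7974, the nearest candidate was in no case another of these entries. The nearest to miR-1246 were miR-210-3p (1.35), miR-3607-5p (1.39) and miR-4488 (1.40), and the nearest to miR-4488 was miR-192-5p (1.06). MiR-4485-3p lay closest to miR-150-5p (0.28). MiR-4454 lay closest to miR-503-5p (1.01), with miR-7974 as the third (1.05), while miR-7974 lay closest to miR-371b-3p (0.33).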

How the data were processed

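Small RNA libraries of DLD1 and HT29 cells grown in 2D or as MCS were grouped by line, culture and replicate from the labels. After clipping adapter and random bases and a filter on length and quality, the authors aligned reads to GRCh37 and next to miRBase. The deposited values are raw counts, 1 per mature miRNA. The submitters' processing notes name cutadapt 1.11, Bowtie2 2.1.0, CASAVA 1.8.3 and edgeR 3.4.2. Neither the use of strand nor the treatment of a read that fits several places is given in the sources used here, so that entries which share sequence may share reads. The single-library tables and the matrix were compared over 12572 values, of which 0 differed. Another 15 table rows that name no miRNA were left out.

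Members and lists were chosen with earlier results of these data known. The 7 members are all named; other entries were named from a list of 39 that resemble structural RNA, or by sequence after the values were seen. Fits used edgeR 4.0.16 in R 4.3.3 (quasi-likelihood test, upper quartile factors over all miRNAs counted in the 4 libraries, average of 10 CPM or more). A call needed a Benjamini-Hochberg adjusted p-value under 0.05 over all miRNAs tested and a fold change of at least 1.5. Values after ± are SE. With 2 libraries against 2, a 2-sided exact permutation test of a single value cannot go below p = 0.3333. The p-values given set a group difference against the spread between these libraries, which is in part estimated over all miRNAs of a fit. The fit was tested on simulated data. Alternatives were TMM, RLE and other factors, no filter, DESeq2 1.42.0, all 8 libraries in 1 fit, the replicate number as a block, and each library left out. Matches used the RefSeq mature sequences, GRCh37 with GENCODE 44, and blastn 2.17.0. Pooled ratios carry exact 95% counting intervals.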

Additional observations from a re-analysis of the deposited data

Results flagged for a closer look

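Outside the miRNA counts, 2590 counts in replicate 2 of HT29 2D stood on 15 rows that name no miRNA, 0.00988% of that library's counts, against 0 in the other 7 libraries. Of these rows 13 read LN followed by a number from 16 to 28 and held 2588 counts, most of them (1150) at 22, and the others carry words of an alignment file header. The rows entered no comparison, and their source was not tested.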

How the results depend on the processing

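With 2 libraries a group, the spread between replicates set the precision. In DLD1 the count of all miRNAs called between cultures, 143, was 30 with all 8 libraries in 1 fit and 92 to 124 with 1 library left out, where the lone sample is taken to vary like the other group. In HT29 it was 0, with 12 by DESeq2, 15 with no filter, 47 with the replicate block and 0 to 2 with a library left out. Between the lines in 2D it was 188, with 108 by library totals, 393 with no filter and 43 to 293 with a library left out, and in MCS 193, with 389 and 105 to 267. Of the 7 entries, 4 were at least 1.5-fold higher in DLD1 MCS (1 to 4 with a library left out), and in HT29 2 were, or 5 with no filter. Between the lines in 2D, 2 were called higher in HT29 (1 with library totals, 1 to 2 with a library left out) and 1 lower (0 to 1), and in MCS 3 lower (0 to 4). For miR-1246 between the lines in MCS, the log2 fold change of -0.19 was -1.75 without replicate 1 of HT29 MCS and 0.64 without replicate 2. It was called in both of these fits, in opposite directions. Of 90 log2 fold changes between the lines under the other settings, 86 kept direction and side of the threshold. For miR-1291 between the cultures of DLD1, the value of -0.34 was 1.24 without replicate 1 of 2D and -1.22 without replicate 2. The replicate numbers are not shown to pair the libraries. Deviations of same-numbered libraries correlated at 0.33 and 0.79 between the cultures of DLD1 and HT29 and at -0.25 and -0.13 between the lines in 2D and MCS, over 2 numbers. With the replicate block 155 and 186 miRNAs were called between the lines, and with crossed numbers, added after seeing the data, 182 and 194; no call of the 7 entries changed in either. Causes of these changes were not tested.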
